A study of Mus musculus with 9 samples.

Results

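The 10 genes described here, Gata6, Rarb, Selp, Cd93, Ltbp1, Garnl3, Alox15, F5, Prg4 and Vsig4, are known as a signature of the large resident macrophages of the mouse peritoneal cavity. They were taken by their gene names on the array, where all 10 were present with 15 of 55681 probes. Of these, 14 probes of 9 genes were bright enough to be tested, among 39769 probes and 17875 named genes tested in all.

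RNA was measured in male mouse peritoneal macrophages, sorted by flow cytometry as CD45+ F4/80+ cells, on 9 Agilent 1-colour arrays. Group Ctrl (3 arrays) was kept alone in regular medium for 24 h, and group T (3 arrays) was co-cultured for 24 h with CT-26, a mouse colon carcinoma line, in the lower chamber of a Transwell, a well divided by a porous membrane. Group M (3 arrays) holds macrophages that had migrated in the upper Transwell chamber above CT-26, for a time the labels leave out. The titles, the protocol and the agent label give M as the migratory group, but the cell type label puts that word on T, and the groups follow the titles. No strain, genotype or age is stated, and no label says whether replicates are separate animals or cultures, so the p-values rest on the spread of these samples alone, which could be technical.

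The peritoneal cavity holds a large resident macrophage population and a smaller one renewed from monocytes. In the large cells the zinc finger transcription factor Gata6 sets much of the local gene programme, and retinoic acid, which acts through nuclear receptors such as the one encoded by Rarb, induces Gata6. Other members also mark these cells, among them the coagulation factor F5, the lipoxygenase Alox15 and the adhesion receptor P-selectin.

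Between 60.5% and 78.7% of probes were well above background per array, and no spot was saturated. All Ctrl and M arrays lay on 1 slide and all T arrays on another, so that an effect of T and one of its slide cannot be told apart, whereas M and Ctrl were compared within a slide. Over all probes Ctrl3 correlated at 0.967 with Ctrl1, 0.980 with Ctrl2 and 0.981 with M2, and Ctrl1 with Ctrl2 at 0.990. Calls of members and of genes named with a value that ended without Ctrl1 and Ctrl2 are marked as such below. Against Ctrl, that check was not recorded for Rxra, Gata3 and Icam2 in T or for Dhrs9, Gata2, Saa3 and Icam2 in M. Replicate spots were noisiest on M1 and M3, with coefficients of variation of 15.0% and 19.8% against 4.39% to 8.72% elsewhere. In such bulk samples, fewer cells of a type and less RNA per cell cannot be told apart.

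Values below are relative levels, meaning log2 of the processed spot signal minus the 75th percentile of the same array, and they are compared between arrays and never between probes. A log2 difference is given with its moderated standard error from limma over all 9 arrays, with n = 3 per group, and a gene or probe passed where the Benjamini-Hochberg adjusted p over all tested genes or probes was below 0.05.

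Probe sequences are shown where they tell apart probes of 1 gene, as the array design gives them, 5′ to 3′. Ltbp1, F5, Prg4 and Rarb each had several probes that did not move alike. The first Ltbp1 probe below (A_55_P1973036) is assigned to transcript ENSMUST00000079577 from its base 641, and the second (A_55_P1973033) to NM_019919 from its base 6132, with 343525 bases of build mm9 between them. The F5 probe A_51_P407323 (base 6007 of NM_007976) spans 2189 bases of the genome with 60 bases, so it crosses a splice junction, while A_55_P2076545 (base 7216) lies nearer the transcript's end. The capitals mark CAAAA in this A-rich F5 probe, which holds it 4 times in all, and 0.0162% of all array probes hold it at least that often. Stretches of 30 bases are shown for probes that may lie in an untranslated region.
Ltbp1 A_55_P1973036, chr17:75446945-75447004 (mm9, plus strand): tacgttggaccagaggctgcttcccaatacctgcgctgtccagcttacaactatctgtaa
Ltbp1 A_55_P1973033, bases 1 to 30: ggaagtggaagagcttcatagagtttatta
F5 A_51_P407323, chr1:166139728-166141916 (mm9, plus strand): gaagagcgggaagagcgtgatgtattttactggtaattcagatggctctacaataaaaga
F5 A_55_P2076545, bases 1 to 30: tgggCAAAAgtgcttgctgcCAAAACAAAA

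**Figure D1:**
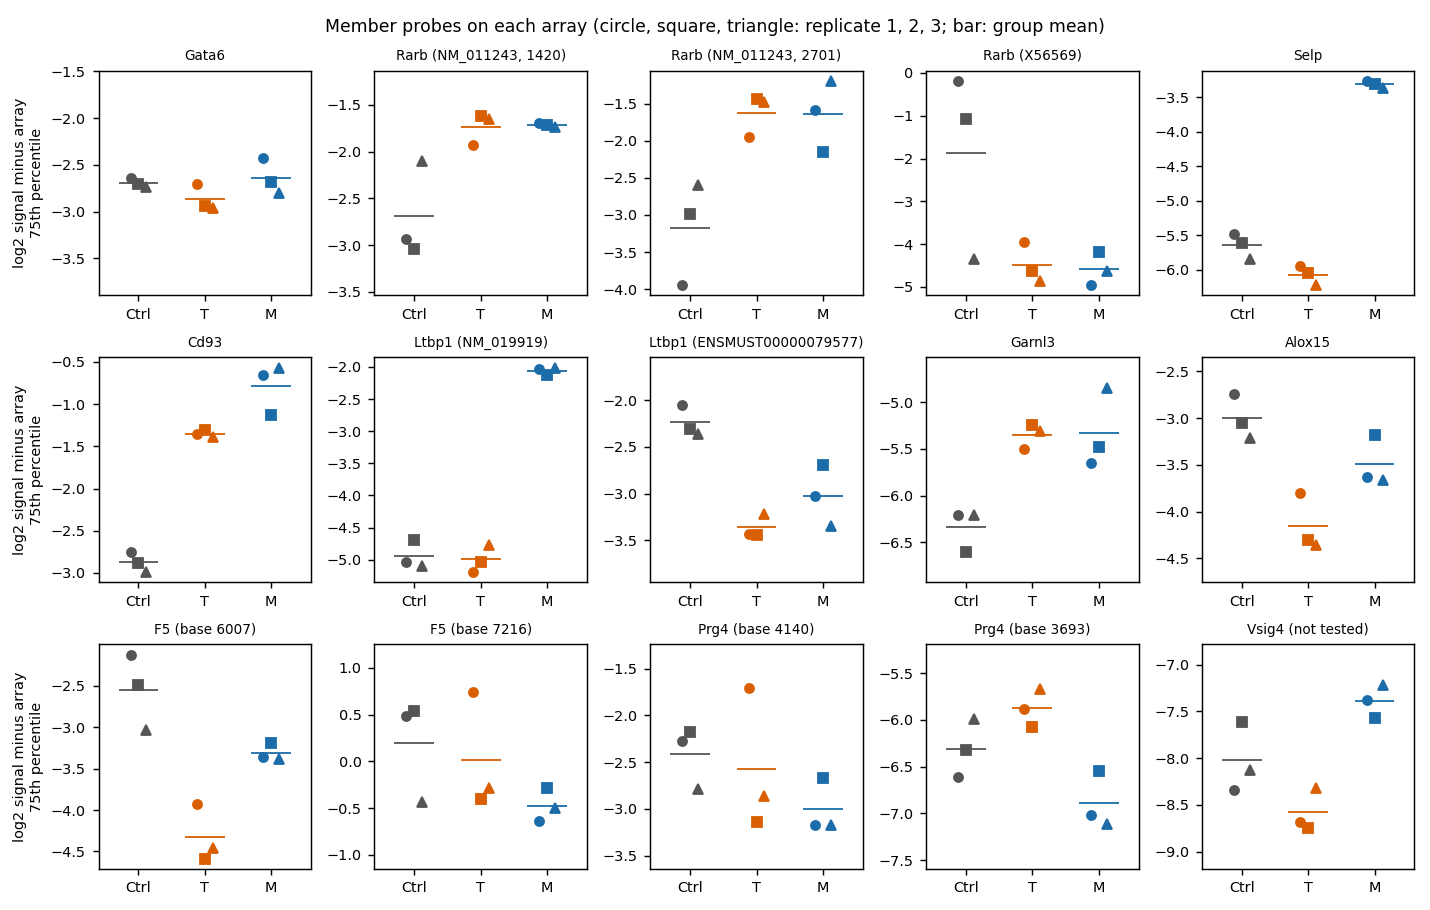
Relative level (log2 of the processed signal minus the array's 75th percentile) of the 15 member probes on each array, with circles, squares and triangles for replicates 1, 2 and 3 and a bar for the group mean. Selp and the NM_019919 probe of Ltbp1 are high in M alone, Cd93 rises from Ctrl to T and M, and the X56569 probe of Rarb is high on Ctrl1 and Ctrl2 only.

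At 1 probe per gene, the brightest, 3 of the 9 tested members passed upward and 2 downward in T against Ctrl, where 44.7% of all tested genes passed (17.6% higher and 27.1% lower). In M against Ctrl 4 were higher and 1 was lower, against 23.7% of all genes (12.4% higher and 11.3% lower). In M against T 2 were higher and none was lower by limma, also at an unadjusted p below 0.05, against 25.7% of all genes (14.9% higher and 10.9% lower). The median log2 difference of the 9 members was -0.17, 0.06 and 0.23 in the 3 comparisons, beside -0.14, -0.09 and 0.11 for all tested genes. Over the 14 tested member probes, 4 passed upward and 4 downward in T against Ctrl, where 46.6% of all tested probes passed (14.9% higher and 31.7% lower). In M against Ctrl 6 passed upward and 1 downward (18.5% of all probes, 8.31% higher and 10.2% lower), and in M against T 3 and 1 (22.9%, 12.7% higher and 10.2% lower). Groups lay apart, without overlap, for 6, 5 and 3 of the 9 genes in the 3 comparisons, beside 53.5%, 36.3% and 48.5% of all genes, and for 8, 8 and 6 of the 14 probes, beside 54.7%, 35.8% and 45.5% of all probes. The comparisons share arrays, so their counts are not independent.

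Gata6, the transcription factor of the large cells, was detected on every array and did not pass in any comparison. In order of replicate, as for all genes below, its relative levels were -2.65, -2.70 and -2.73 in Ctrl, -2.70, -2.94 and -2.96 in T, and -2.43, -2.68 and -2.81 in M. The groups overlapped in every comparison and the 9 arrays spanned 0.53. The log2 difference was -0.17 ± 0.17 in T against Ctrl (95% interval -0.56 to 0.21), 0.06 ± 0.17 in M against Ctrl (-0.33 to 0.44) and 0.23 ± 0.17 in M against T (-0.16 to 0.61). The Gata6 probe lies on mm9 chromosome 18 from 11085039 to 11085097. Over 23 other settings, the T against Ctrl difference of Gata6 lay between -0.25 and 0.25 and it never passed.

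Rarb encodes a retinoic acid receptor and is itself a known target of retinoic acid. Both probes of its NM_011243 transcript were higher in T and in M than in Ctrl. The probe at base 1420 stood at -2.93, -3.04 and -2.10 in Ctrl, at -1.92, -1.62 and -1.65 in T, and at -1.70, -1.71 and -1.73 in M. Neither T nor M overlapped Ctrl, of which Ctrl3 was the highest array. The log2 difference was 0.96 ± 0.25 in T (1.94-fold, adjusted p 0.0113) and 0.98 ± 0.25 in M (1.97-fold, adjusted p 0.0272). At base 2701 the differences were 1.55 ± 0.36 (adjusted p 0.00708) and 1.53 ± 0.36 (adjusted p 0.0203). Between T and M neither Rarb probe passed, with differences of 0.02 ± 0.25 and -0.02 ± 0.36. Without Ctrl1 and Ctrl2 all 4 Rarb calls ended, at 0.37 and 0.39 for base 1420 and 0.98 and 0.95 for base 2701 in T and M (adjusted p 0.262, 0.453, 0.119 and 0.284), where Ctrl3 alone is assumed to vary like the other groups. A fit on the M and Ctrl arrays alone leaves the M against Ctrl differences unchanged and alters only the spread and the p-values. In that fit the base 1420 probe missed the threshold (adjusted p 0.0657) and the base 2701 probe passed it narrowly (0.0494).

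The third Rarb probe (A_55_P2099585, assigned to X56569 from its base 36) lies 386716 bases from the base 1420 probe, the nearer of the others, on mm9 chromosome 14, and begins as follows.
Rarb A_55_P2099585, bases 1 to 30: tattgagcctgtttgcacacactcaccacc
Rarb A_55_P2084807, chr14:17264648-17264707 (mm9, minus strand): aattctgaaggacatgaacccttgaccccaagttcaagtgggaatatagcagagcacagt
The X56569 probe had processed signals of 1939 and 1319 on Ctrl1 and Ctrl2, of 131 on Ctrl3, of 139, 147 and 114 in T, and of 120, 136 and 123 in M. Ctrl3 thus lay among the T and M arrays, and the group SD was 2.19 in Ctrl on the log2 scale. The difference of this Rarb probe was -2.61 ± 0.84 in T (adjusted p 0.0292) and -2.71 ± 0.84 in M (adjusted p 0.0501), and without Ctrl1 and Ctrl2 it was -0.13 and -0.23 (adjusted p 0.844 and 0.806).

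The RefSeq promoter table of GRCm38.p6 held windows for 6 of the 10 members, each from 250 bases before to 50 after a transcript start. The Rarb window (chr14:16575427-16575726, minus strand) is shown because it carries a direct repeat of the kind bound by retinoic acid receptors, set in capitals.
Rarb: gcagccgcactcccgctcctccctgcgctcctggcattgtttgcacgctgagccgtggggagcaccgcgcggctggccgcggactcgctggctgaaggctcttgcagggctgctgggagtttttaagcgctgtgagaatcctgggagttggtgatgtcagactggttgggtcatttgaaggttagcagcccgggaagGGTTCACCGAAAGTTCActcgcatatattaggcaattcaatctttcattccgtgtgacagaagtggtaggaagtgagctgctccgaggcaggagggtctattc
The repeat, searched on both strands as GGTTCA and AGTTCA with 5 bases of any kind between, begins 53 bases before the Rarb start and was found in 2 of 32851 windows (0.00609%). The letters searched are those of the Rarb repeat itself, so this share does not measure how specific the match is. A pair of AGGTCA with the same spacing was found in 3 windows and in none of the members'. The GATA-type motifs AGATAA and TGATAA, also on both strands, were in none of the 8 windows of these members, whereas 18.6% of all windows held at least 1 of them. A match or its absence describes these letters in this window only.

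Around Rarb, 19 of 25 listed retinoid pathway genes were tested. In T 6 were higher and 5 lower than in Ctrl (list median 0.23), in M 4 were higher and 2 lower (-0.15), and in M against T 4 were higher and 3 lower (0.16). Rxra, the receptor partner of Rarb, stood at -4.92, -5.18 and -5.45 in Ctrl, at -4.40, -4.37 and -3.72 in T, and at -1.78, -1.68 and -1.45 in M. No groups overlapped, and Rxra was 3.55 ± 0.23 higher in M (11.7-fold, adjusted p 3.08e-06) and 1.02 ± 0.23 higher in T (adjusted p 0.00604). Tgm2, a transglutaminase gene that retinoic acid induces, rose by 2.11 ± 0.19 in M, and Dhrs3, which turns retinaldehyde back to retinol, rose by 1.54 ± 0.19. Dhrs9, a retinol dehydrogenase gene, rose by 2.17 ± 0.20 in T and 1.37 ± 0.20 in M. Rara, a further retinoic acid receptor, rose by 1.16 ± 0.20 in T and was 2.83-fold lower in M than in T (adjusted p 0.000401), and its probes differed in sign in M against Ctrl, where it did not pass. Crabp1, which encodes a retinoic acid binding protein, fell by 2.04 ± 0.57 in T, with overlapping groups and a call that ended without Ctrl1 and Ctrl2 (adjusted p 0.427). No array was well above background for Cyp26a1, which encodes a retinoic acid degrading enzyme, or for Lrat and Rbp4.

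Selp encodes P-selectin, the adhesion receptor of platelets and endothelium that large peritoneal macrophages of the mouse also express. It was higher in M than in both other groups. Its relative levels were -5.48, -5.61 and -5.85 in Ctrl, -5.94, -6.05 and -6.22 in T, and -3.26, -3.30 and -3.36 in M. The M arrays lay above all others, and T and Ctrl did not overlap but did not pass either (-0.42 ± 0.17, adjusted p 0.0652). The probe was well above background on 2 of 3 Ctrl, 2 of 3 T and 3 of 3 M arrays. The log2 difference was 2.34 ± 0.17 in M against Ctrl (5.06-fold, adjusted p 1.41e-05) and 2.76 ± 0.17 in M against T (6.79-fold, adjusted p 6.62e-06). The Selp probe (A_51_P211854, mm9 chromosome 1 from 166079660 to 166079719) was printed 10 times on each array. Among spots not flagged as outliers by the scanner software, the dimmest in M had a signal of 86.5 (on M3, itself not well above background), against 85.6 for the brightest in T and 72.9 in Ctrl. The arrays differ in brightness, so this order of single spots holds for the unscaled signal and not for relative levels. Outlier spots at 150.2 on Ctrl2 and 156 on T2 were left out. In a fit on the M and Ctrl arrays alone the Selp difference passed (adjusted p 0.000300), and without Ctrl1 and Ctrl2 it was 2.54.

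**Figure D2:**
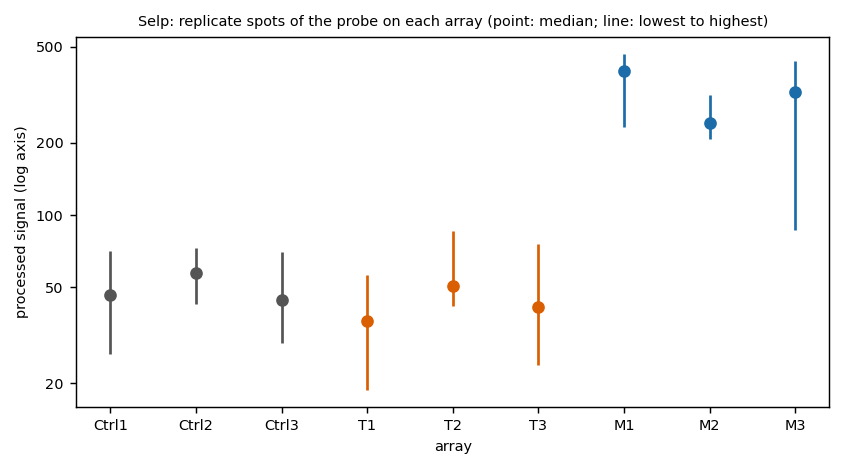
Processed signal of the replicate spots of the Selp probe on each array (log axis), with the median as a point and a line from the lowest to the highest kept spot. Every kept M spot, 86.5 at the lowest, lies above every kept Ctrl and T spot, 85.6 at the highest, with outlier spots left out.

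Markers of platelets and endothelium, which also express Selp, moved in both directions. Of 14 platelet and megakaryocyte markers 12 were tested, and 2 were higher and 1 was lower in M than in Ctrl, against 4 and 6 in T. Pf4, the platelet chemokine gene, rose by 5.98 ± 0.34 in M and by 2.38 ± 0.34 in T, and Gp9 rose by 2.11 ± 0.20 and 1.24 ± 0.20, whereas Gp1ba, which rose by 2.05 ± 0.29 in T, was not well above background on any M array and Itga2b, the platelet integrin gene, ranged from -3.12 to -2.60 in M against -2.84 to -2.11 in Ctrl. The summed linear level of the 12 platelet markers, in units of the array's 75th percentile, was 2.57 to 3.55 in Ctrl, 2.31 to 2.84 in T and 5.92 to 12.6 in M. Without Pf4 the sum of the other 11 was 2.42 to 3.46 in Ctrl, 1.74 to 2.33 in T and 1.95 to 2.80 in M. Both sums leave out the listed markers Ppbp and Gp5, too dim to be tested. Ppbp had signals of 184, 81.3 and 40.6 in M, of which 2 cleared the background limit. In T its signals were 5.56, 9.60 and 17.7, and on Ctrl1 and Ctrl3 they were 5.16 and 11.6, all short of that limit. Gp5 cleared it on 1 T array only. Of 15 endothelium markers 9 were tested, with 1 higher (Tie1, 3.42 ± 0.18) and 1 lower in M (Tek, which 10 of 23 other settings did not call, with adjusted p 0.647 without Ctrl1 and Ctrl2), and their sum was 6.44 to 7.83 in Ctrl, 6.95 to 7.95 in T and 6.59 to 7.57 in M. These counts and sums use the brightest probe of a gene. The 2 probes of the endothelium marker Kdr differed in sign, at -0.27 and 4.34 in T and -0.08 and 2.85 in M. In M so did those of the platelet marker Clec1b (-0.16 and 1.53) and of Vwf (-0.26 and 0.27), which is on both lists. The endothelial genes Cdh5, Erg, Sox17 and Sox18 were not well above background on any array. The part of platelet RNA in the Selp result was not tested.

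Cd93 encodes a C-type lectin-like receptor of myeloid and endothelial cells and was higher in both co-cultured groups. Its relative levels were -2.76, -2.89 and -2.99 in Ctrl, -1.36, -1.31 and -1.39 in T, and -0.65, -1.13 and -0.57 in M. The 3 groups did not overlap. Cd93 rose by 1.52 ± 0.19 in T (2.87-fold, adjusted p 0.000365) and by 2.10 ± 0.19 in M (4.27-fold, adjusted p 6.49e-05). Between M and T it differed by 0.57, which passed at gene level (adjusted p 0.0442) and not at probe level (0.0545). The Cd93 probe lies on mm9 chromosome 2 from 148262436 to 148262495, and its T against Ctrl call held in all 23 other settings.

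Ltbp1 encodes a protein that binds latent TGF-beta in the matrix, and its 2 probes, shown above, went opposite ways in M. The NM_019919 probe of Ltbp1 stood at -5.04, -4.70 and -5.10 in Ctrl, at -5.19, -5.04 and -4.77 in T, and at -2.03, -2.12 and -2.01 in M. M lay far above Ctrl and T, which overlapped. The difference was 2.89 ± 0.19 in M against Ctrl (7.42-fold, adjusted p 5.56e-06), 2.94 ± 0.19 in M against T (7.69-fold, adjusted p 6.94e-06) and -0.05 ± 0.19 in T against Ctrl. The ENSMUST00000079577 probe of Ltbp1 stood at -2.05, -2.31 and -2.36 in Ctrl, at -3.43, -3.44 and -3.21 in T, and at -3.02, -2.69 and -3.35 in M. Both co-cultured groups lay below Ctrl without overlap, T by -1.12 ± 0.20 (adjusted p 0.00256, and 0.0527 without Ctrl1 and Ctrl2) and M by -0.79 ± 0.20 (adjusted p 0.0305). This call of a lower level in M ended in 12 of 23 other settings. Among them were the fit on the M and Ctrl arrays alone (adjusted p 0.0740) and that without Ctrl1 and Ctrl2. The NM_019919 rise ended only with the deposited value table. Because the brightest probe stands for a gene, the gene-level count holds Ltbp1 as lower.

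The deposited value table needs a remark for Selp, Cd93 and Ltbp1, since its T2 column equals none of the 9 scanner files. In that column, after the same centring, Selp stood at -3.37, Cd93 at 1.16 and the NM_019919 probe of Ltbp1 at -1.28, against -6.00 and -6.31, -1.36 and -1.40, and -5.19 and -4.78 in the table's T1 and T3. With all columns of the table, Selp, Cd93 and Ltbp1 missed the threshold in M against Ctrl (adjusted p 0.0504, 0.0531 and 0.0543) at differences of 2.32, 2.10 and 2.89. Without the T2 column, an alternative chosen after seeing the data, they passed (adjusted p 0.000103, 0.000292 and 3.19e-05). All values above come from the scanner files.

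Garnl3, a gene for a GTPase-activating domain protein named after its likeness to Rap regulators, was dim and higher in both co-cultured groups. Its relative levels were -6.21, -6.60 and -6.21 in Ctrl, -5.50, -5.25 and -5.31 in T, and -5.65, -5.48 and -4.85 in M. Neither T nor M overlapped Ctrl, but the probe was well above background on 1 of 3 Ctrl, 3 of 3 T and 1 of 3 M arrays. Garnl3 was 0.99 ± 0.23 higher in T (adjusted p 0.00808) and 1.01 ± 0.23 higher in M (adjusted p 0.0194). Both calls ended without Ctrl1 and Ctrl2, and in a fit on the M and Ctrl arrays alone the M call missed the threshold (adjusted p 0.0561).

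Alox15, the 12/15-lipoxygenase gene that acts on polyunsaturated fatty acids, fell in T. The probe, which begins at base 1426 of NM_009660 on the minus strand of chromosome 11, reads as follows.
Alox15 A_51_P252565, chr11:70159115-70159339 (mm9, minus strand): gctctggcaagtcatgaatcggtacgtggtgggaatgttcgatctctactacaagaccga
Its relative levels were -2.74, -3.05 and -3.21 in Ctrl, -3.80, -4.30 and -4.36 in T, and -3.63, -3.18 and -3.67 in M. T lay below Ctrl and M without overlap, and M overlapped Ctrl. The difference of Alox15 was -1.16 ± 0.23 in T (2.23-fold lower, adjusted p 0.00360) and -0.49 ± 0.23 in M (adjusted p 0.134). M was 0.66 ± 0.23 above T (adjusted p 0.0613). Without Ctrl1 and Ctrl2 the T call of Alox15 ended at -0.95 (adjusted p 0.0769).

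F5 encodes coagulation factor V. By its splice-crossing probe (A_51_P407323) F5 stood at -2.13, -2.49 and -3.04 in Ctrl, at -3.93, -4.59 and -4.46 in T, and at -3.36, -3.20 and -3.39 in M. No groups overlapped, with T lowest and Ctrl highest. The F5 difference was -1.77 ± 0.26 in T (3.41-fold lower, adjusted p 0.000908) and -0.76 ± 0.26 in M (adjusted p 0.0627), and M was 1.01 ± 0.26 above T (2.01-fold, adjusted p 0.0201). The T against Ctrl call held in all 23 other settings, and the M against T call ended in 8. By the A-rich probe F5 differed by -0.18 ± 0.34 in T and -0.67 ± 0.34 in M, with all groups overlapping and no call (95% intervals -0.95 to 0.59 and -1.44 to 0.10).

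Prg4, which encodes the lubricating proteoglycan of joints and serous surfaces, did not pass against Ctrl by either probe. The Prg4 probe at base 4140 stood at -2.27, -2.18 and -2.79 in Ctrl, at -1.71, -3.14 and -2.86 in T, and at -3.17, -2.67 and -3.17 in M, and the groups overlapped. The Prg4 probe at base 3693 stood at -6.61, -6.32 and -5.99 in Ctrl, at -5.88, -6.07 and -5.67 in T, and at -7.01, -6.55 and -7.11 in M. M lay below T without overlap (adjusted p 0.0107) but was well above background on 0 of 3 arrays, so no size is given, and only 1 of 3 Ctrl arrays measured it. The call ended without T3, without M1 and M3, with normexp background and with the deposited table (adjusted p up to 0.282). On mm9 the Prg4 probes lie on chromosome 1 from 152296620 to 152296679 and from 152297067 to 152297126.

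**Figure D3:**
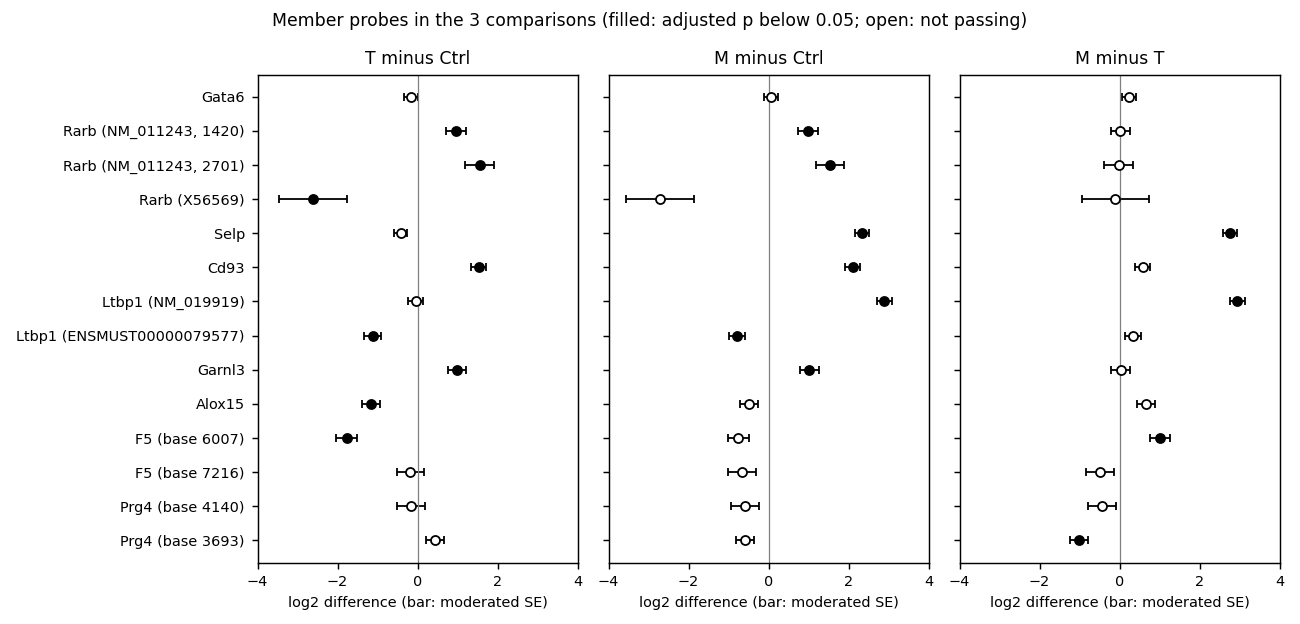
Log2 difference of the 14 tested member probes in the 3 comparisons, with the moderated standard error as a bar, filled where the adjusted p was below 0.05. The M against Ctrl differences run from -2.71 (Rarb, X56569) to 2.89 (Ltbp1, NM_019919), and the probes of Rarb and of Ltbp1 fall on both sides of 0.

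Vsig4, a complement receptor gene of resident macrophages, was well above background on 0 of the 9 arrays. Its signals were 6.81, 14.3 and 9.60 in Ctrl, 5.24, 8.48 and 10.4 in T, and 22.3, 13.0 and 20.4 in M, beside median signals of the negative controls of 4.64, 5.95 and 8.98, of 5.15, 8.66 and 10.4, and of 21.2, 10.8 and 15.8 on the same arrays. The Vsig4 signals were within a few units of the negative controls except on Ctrl2, and no fold is given.

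The label of large peritoneal macrophages was checked with 28 other genes of these cells, chosen from general knowledge. Of these, 20 were tested, and Timd4, Fn1, Tgfb2, Serpinb2, Naip1 and Cxcl13 were not well above background on any array, including the Ctrl arrays. Thbs1 was above it on 1 Ctrl array and Cfb on 1 T array only. Icam2, an adhesion molecule used to sort these cells, was measured on all arrays, at 0.10, 0.07 and 0.77 in Ctrl, 1.26, 1.09 and 1.18 in T, and 1.30, 1.36 and 1.36 in M. It rose by 0.87 ± 0.20 in T and 1.03 ± 0.20 in M, with no overlap, and against Ctrl3 alone the differences were 0.41 and 0.57, with no test. Against the label, then, Gata6, Icam2, Cd93 and F5 were detected in all groups and Vsig4, Timd4 and Fn1 in none. Of the proteins used for sorting, the genes Ptprc (CD45) and Adgre1 (F4/80) did not pass in T (0.02 ± 0.20 and 0.10 ± 0.22) and rose by 0.80 ± 0.20 and 2.86 ± 0.22 in M, and without Ctrl1 and Ctrl2 the Ptprc call ended (adjusted p 0.335).

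**Figure D4:**
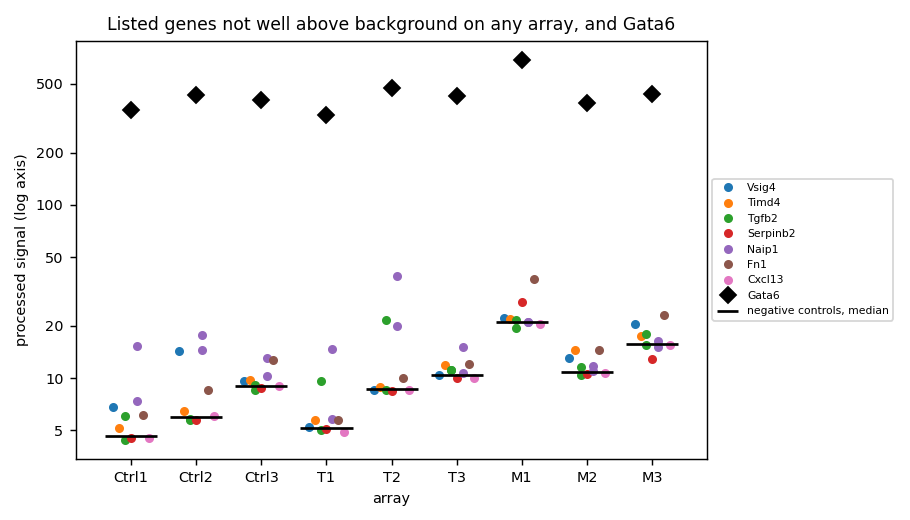
Processed signal (log axis) of the members and other large peritoneal macrophage genes that were not well above background on any array, beside Gata6 (diamonds) and the median of the negative controls (black bars). Gata6 signals run from 330.2 to 690 while the other genes stay at or near the negative controls, with the highest at 38.6 (Naip1 on T2).

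Of the 20 tested genes of that list, 7 were higher and 4 lower in T (median 0.34), 9 higher and 1 lower in M (0.25), and 9 higher and 2 lower in M against T (0.75). Nt5e, the CD73 ectonucleotidase gene, was below the background limit in all of Ctrl and was at least 4.95-fold higher in T and at least 11.4-fold higher in M. Slpi, a secreted protease inhibitor gene, rose by 1.90 ± 0.26 in T and 4.61 ± 0.26 in M, and Saa3, an acute phase gene, rose by 2.60 ± 0.28 and 2.05 ± 0.28. C4b, a complement gene, rose by 2.46 ± 0.34 in M, and Cd24a by 2.41 ± 0.41, a call that ended without M1 and M3 and without Ctrl1 and Ctrl2 (adjusted p 0.0917 for the latter). In T, where no array was above background for it, the aspartoacylase gene Aspa was at least 2.77-fold lower than in Ctrl. No M array was above background for Aspa either, so the 9 higher in M against T include a gene detected in neither group.

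Genes of the small, monocyte-derived peritoneal macrophages gave a further comparison, with 14 of 21 tested. In T 4 were higher and 2 lower (median 0.15), in M 6 were higher and 1 lower (0.28), and in M against T 6 were higher and none lower by limma (2 lower at an unadjusted p below 0.05; median 0.34). The antigen presentation genes H2-Aa and H2-Eb1 rose by 3.58 ± 0.41 and 2.56 ± 0.22 in M, and H2-DMb1 also lay above Ctrl there. Other such genes on the list did not move with them. H2-Ab1 stood at 0.71, 0.78 and 0.81 in M against 0.70, 0.70 and 1.42 in Ctrl, and Cd74 overlapped Ctrl too. Ciita lay lower in M, at 3.34, 3.39 and 2.93 against 3.97, 3.64 and 3.63 in Ctrl. The lectin gene Clec10a rose by 2.56 ± 0.16 in M and 1.68 ± 0.16 in T. Itgax (CD11c) was not well above background in Ctrl, so that its rise is a bound of at least 5.88-fold in M and at least 4.38-fold in T. H2-Aa was above background on 2 of 3 Ctrl arrays. Of the defining genes of these cells, Ccr2 and Cd226 were above background on Ctrl1 and Ctrl2 only, and Mrc1, Lyve1 and Retnla on no array.

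**Figure D5:**
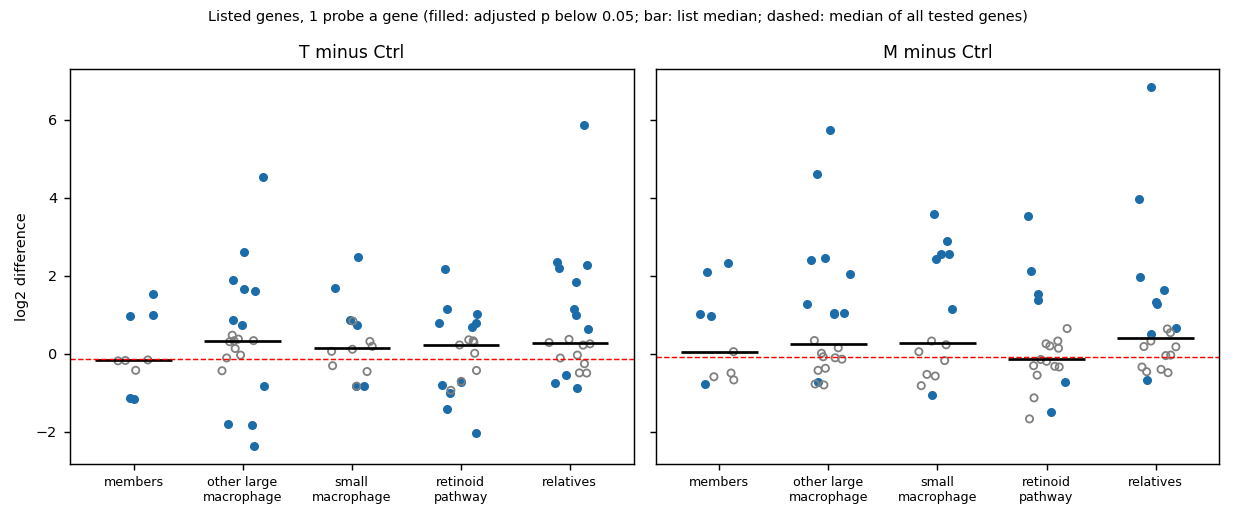
Log2 difference of each tested gene of 5 lists in T minus Ctrl and M minus Ctrl, filled where the adjusted p was below 0.05, with the list median as a bar and the median of all tested genes (-0.14 and -0.09) as a dashed line. Genes not above background in Ctrl, such as Nt5e and Thbd, are drawn at the fitted difference, which is no bound, and points are spread sideways at random.

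Among relatives of the members by family or domain, 20 of 29 were tested, with 8 higher and 3 lower in T (median 0.27), 8 higher and 1 lower in M (0.42), and 4 higher and 2 lower in M against T (0.06). Thbd, thrombomodulin, which shares its domain type with Cd93, was at least 16.1-fold higher in T and at least 31.3-fold higher in M. Rap1gap, a Rap GTPase-activating gene, rose by 2.28 ± 0.26 in T and 3.97 ± 0.26 in M. Of the GATA factors, Gata2 rose by 2.36 ± 0.20 in T and 1.28 ± 0.20 in M, and Gata3 by 0.99 ± 0.15 and 1.97 ± 0.15. Vsig8, of the immunoglobulin family of Vsig4, rose by 2.20 ± 0.26 and 1.64 ± 0.26. The selectin gene Sele was well above background on 0 of the 9 arrays.

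Across the 9 arrays, the tested genes whose levels followed a member most closely are given as a description, since the arrays share their groups and slides. Gata6 had the loosest matches, Tgtp2 (r = 0.889), Lims1 (0.865) and Rhox13 (0.851). Selp was followed by Cck (0.997), Rims2 (0.995) and Padi3 (0.995), and Cd93 by Slc12a5 (0.992), Tmem53 (0.988) and Il1b (0.985). Rarb at base 1420 was followed by Agpat2 (0.991), Sh2d3c (0.989) and Rnf103 (0.988), and Alox15 by Vmn2r3 (0.999), Rprm (0.994) and Gprasp2 (0.993). Garnl3 was followed by Cyth1 (0.974), Gfi1 (0.966) and Lrfn3 (0.965), and the ENSMUST00000079577 probe of Ltbp1 by Mettl5 (0.992), Ntpcr (0.975) and Ruvbl1 (0.974).

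Other cell types that could have come through the sort were checked by their markers. Of 16 tested pan-macrophage markers, 4 were higher and 1 lower in T and 5 higher and 1 lower in M, with summed levels of 321 to 377 in Ctrl, 257 to 352 in T and 290.3 to 401 in M. Mertk, an apoptotic cell receptor gene, rose by 2.74 ± 0.20 in T. Of 12 tested carcinoma epithelium markers, 3 were higher and 5 lower in T and 1 was lower in M, with sums of 4.69 to 6.64 in Ctrl, 4.31 to 4.63 in T and 4.06 to 4.76 in M. Krt19, a keratin gene, rose by 3.63 ± 0.27 in T, and Elf3 rose by 1.46 (adjusted p 0.000243), a call that ended only with the deposited value table. Epcam and Ocln fell by 1.60 ± 0.29 and 1.68 ± 0.28 in T, calls that ended without Ctrl1 and Ctrl2. Of listed markers not tested, Cdx1 had signals of 235 and 132 on Ctrl1 and Ctrl2 and 13.4 on Ctrl3. Cdh1 was above background on 2 Ctrl arrays, Krt8 on 2 Ctrl arrays and 1 T array, Cldn3 on 1 Ctrl array and Cdx2 on none. Of 5 tested mesothelium markers, 1 was higher (Krt19) and 1 lower in T, with Wt1 and Upk3b on no array above background. Of 10 tested B cell markers, 5 were lower in T and 1 in M, with Ms4a1 on no array above background. Of 8 tested mast cell and eosinophil markers, 1 was higher (Tpsb2, whose probes differed in sign at 1.54 and -0.70) and 4 were lower in T, and 2 were lower in M. The part of these cells in the members' results was not tested.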

How the data were processed

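Per the submitters' processing notes the scans went through Feature Extraction 10.7.3.1 of Agilent, and the deposited scanner files give a background-subtracted processed signal intensity per spot, per the file headers. Control and outlier spots were left out, spots of a probe were averaged, and values were put on the log2 scale relative to each array's 75th percentile. A probe counted as well above background where at least 0.5 of its kept spots were, and was tested where this held on all 3 arrays of a group. The number of arrays, spot noise and, for dim probes, background limit the precision. Group means over all 9 arrays were fitted with limma 3.58.1 in R 4.3.3. The procedure was tested on simulated data. A deposited value table was used as an alternative, in which 8 columns equal scanner files, with M1 and M2 exchanged, and T2 equals none. Its scale was inferred: 4 of its columns are linear intensity and 5 log2, per the file's values, and the authors' centring of T2 stays unknown. A fold against a group not above background on any array is a bound, set from the lowest signal above background. Mean probe of a gene, other scalings, filters, a replicate block and leaving out arrays were alternatives. Deviations of same-numbered arrays from their group means correlated at 0.551, 0.118 and 0.377 in Ctrl and T. In Ctrl and M the values were -0.269, -0.186 and 0.0171 as the scanner files number them. With the table's exchanged M1 and M2 they were 0.351, 0.0391 and 0.0171. This check rests on the data alone and does not settle whether replicates are paired. Named genes were all members and, per other list, the called genes with the 4 largest differences, plus Ptprc and Adgre1. Icam2, Itga2b, Ppbp, Gp5, Kdr, Clec1b, Vwf, H2-DMb1, H2-Ab1, Cd74, Ciita and undetected genes were added after values were seen. So were Lrrn4, Muc16, Aldh1a2, Krt8, Cdx1, Cdh1 and Cldn3. Members and lists were chosen with earlier results of these data known. A few listed genes and a probe sequence are not reported here.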

Additional observations from a re-analysis of the deposited data

How the results depend on the processing

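Of 19 called results of member probes, 2 kept their call in all 23 other settings (Cd93 and the splice-crossing F5 probe in T against Ctrl), and of 106 called results of other named genes 53 did, and none of these results was reversed. Cd93 in M against T, called at gene level only, stood at -0.25 with the deposited table. Selp, Cd93 and the NM_019919 probe of Ltbp1 lost the M against Ctrl call in 1 setting, the deposited table. The cause of the other losses was not tested. Median scaling moved the median of all genes from -0.14 to 0.29 in T against Ctrl and from -0.09 to 0.21 in M against Ctrl, and the share of calls that were higher from 39.4% to 66.2% and from 52.4% to 74.7% (52.5% and 66.2% under quantile normalization).

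Counts of members that moved by over 1.5 times follow. In T against Ctrl, the 3 higher genes and 4 higher probes were 1 and 1 with the deposited table and 1 and 1 without Ctrl1 and Ctrl2, an alternative added after seeing the data. The 2 lower genes were 4 with the mean over probes, 5 with array weights and 1 without Ctrl1 and Ctrl2, and the 4 lower probes were 1 without Ctrl1 and Ctrl2. In M against Ctrl, the 4 higher genes were 2 with probes above background on all 9 arrays, 2 without M1 and M3 and 2 without Ctrl1 and Ctrl2, and the 6 higher probes were 0 with the deposited table, 3 without M1 and M3 and 3 without Ctrl1 and Ctrl2. The 1 lower gene was 0 under quantile normalization, median scaling, the mean over probes, the deposited table, only the 2 groups compared, without M1 and M3 and without Ctrl1 and Ctrl2, and 4 with array weights. The 1 lower probe was 0 under quantile normalization, the deposited table with or without T2, only the 2 groups compared, without M1 and M3 and without Ctrl1 and Ctrl2, 3 with normexp, 2 with probes above background on all 9 arrays, 2 with the replicate block and 6 with array weights. In M against T, the 2 higher genes were 1 under median scaling, the replicate block, trend and robust spread, without M1 and M3 and the deposited table without T2, 0 with the deposited table and 4 with the mean over probes. The 3 higher probes were 5 under quantile normalization and array weights and 0 with the deposited table. The lower genes went from 0 to 1 with the mean over probes, and the 1 lower probe was 0 with normexp, probes above background on all 9 arrays, the deposited table and without M1 and M3.

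Leaving out 1 array gave 2 to 4 higher genes and 3 to 6 higher probes in M against Ctrl, 0 to 2 lower genes and 0 to 4 lower probes, and in M against T 1 to 3 higher genes, 2 to 5 higher probes and 0 to 1 lower probes. In T against Ctrl the ranges were 3 to 3 and 4 to 5 higher, and 2 to 3 and 3 to 5 lower. In M against Ctrl the higher genes were 2 without Ctrl2, the higher probes 3 without Ctrl2 or M3, the lower genes 0 without Ctrl1, Ctrl2, M1 or M3 and 2 without Ctrl3, and the lower probes 0 without those 4 arrays or T2 and 4 without Ctrl3. In M against T the higher genes were 1 without Ctrl2, M1, M3, T2 or T3, the higher probes 5 without Ctrl3, and the lower probes 0 without T3. The replicate block changed no member call in T against Ctrl. Slide as a block was not run, since slide 2 holds T alone. Under the alternatives the counts of the other lists are not given here, only results of their named genes. Dim members (Garnl3, Prg4 at base 3693, Vsig4) are limited by signal over background.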
